A study of Mus musculus with 13 samples.

Results

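Wnt proteins are secreted lipid-modified ligands that bind Frizzled receptors and the coreceptors LRP5 and LRP6 and so stabilise beta-catenin, which acts in the nucleus with TCF and LEF factors. Some Wnt ligands signal instead through planar polarity and calcium routes. In the mammary gland, Wnt signals are known for their role in stem cells and ductal growth, and their secreted antagonists and ligands are often targets of Polycomb repression.

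The genes described here were the Wnt ligands, Frizzled receptors, LRP coreceptors, R-spondins, LGR receptors, secreted antagonists (DKK, SFRP and WIF1 proteins) and Axins, taken by gene symbol from 6 ChIP-seq peak lists. RefSeq holds 49 mouse genes with such symbols, and 39 of them had a peak in at least 1 of the 6 lists, out of 18562 genes in any list. The other 10 (Axin2, Dkk4, Fzd8, Fzd10, Rspo1, Sfrp5, Wnt1, Wnt2b, Wnt3 and Wnt4) were in none of the 6 lists used here and have no value below. The 39 genes comprised 15 Wnt ligands, 10 Frizzled or LRP receptors, 6 R-spondins or LGR receptors, 7 antagonists and Axin1.

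The chromatin came from 4T1, a cell line from a spontaneous mammary tumor of BALB/cJ mice. Control cells carried a control guide RNA (sg-Ctrl), and the knockout was a single CRISPR/Cas9 clone (KO-N13) lacking Nup210, which encodes the nuclear pore protein NUP210. H3K4me3, a mark of active promoters, and H3K27me3, the Polycomb mark of repressed chromatin, were profiled in both conditions. NUP210 and the nuclear pore complex (NPC, an antibody to several nucleoporins) were profiled in sg-Ctrl cells alone. Each list came from 1 library, so there were no replicates, differences between conditions have no replicate check, and a difference of the clone cannot be told apart from one of the knockout. All intervals below are 95% intervals of counting error only, and no test across samples was possible.

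The 4 histone lists held 8874 to 11018 peaks each. The H3K4me3 lists held 26236314 (sg-Ctrl) and 24873356 (KO) reads in peaks and the H3K27me3 lists 7719297 and 26811061. Reads were divided by the ChIP to IgG library ratio of each list. This ratio was 1.27 times higher in KO than in sg-Ctrl for H3K4me3 and 3.16 times higher for H3K27me3, so the KO H3K27me3 library was the deeper of the pair. Of the epithelial markers Krt8, Krt18, Epcam and Cdh1, all 4 had an H3K4me3 peak in both conditions. Of the markers of other cell types, Col1a1 and Pdgfra of fibroblasts had H3K4me3 in both, the immune genes Ptprc and Cd3e had H3K27me3 alone in both, Cdh5 of endothelium had H3K27me3 in KO alone, and Pdgfrb and Pecam1 were in no list. The targeted gene Nup210 kept an H3K4me3 peak, with 885 reads in sg-Ctrl, 913 reads in KO and a log2 ratio of -0.41, which says nothing about the coding lesion.

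Promoter sequences of 6 of the genes are shown because they stand for the patterns described below. Each is the 250 bases before a RefSeq start in GRCm38.p6, written 5′ to 3′ on the strand of the gene, with each CpG in capitals. Wnt3a (minus strand, chr11:59290752-59291001) and Wnt9a (plus strand, chr11:59306680-59306929) are neighbours. The Wnt9a stretch lay in an H3K4me3 peak. The Wnt3a stretch lay in no peak of either mark, and the H3K27me3 of Wnt3a lay inside the gene body. Lgr6 (minus strand, chr1:135105277-135105526) and the upstream start of Wnt11 (plus strand, chr7:98834862-98835111) lay in H3K4me3 peaks that were higher in KO. Wif1 (plus strand, chr10:121033754-121034003) lay under both marks in both conditions, and Dkk1 (minus strand, chr19:30549497-30549746) under H3K27me3 alone.
Wnt3a: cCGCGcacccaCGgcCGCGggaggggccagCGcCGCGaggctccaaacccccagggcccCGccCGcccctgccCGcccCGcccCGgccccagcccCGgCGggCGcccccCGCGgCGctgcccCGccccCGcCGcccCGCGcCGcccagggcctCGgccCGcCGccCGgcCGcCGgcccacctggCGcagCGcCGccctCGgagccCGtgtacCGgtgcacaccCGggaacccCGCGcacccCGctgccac
Wnt9a: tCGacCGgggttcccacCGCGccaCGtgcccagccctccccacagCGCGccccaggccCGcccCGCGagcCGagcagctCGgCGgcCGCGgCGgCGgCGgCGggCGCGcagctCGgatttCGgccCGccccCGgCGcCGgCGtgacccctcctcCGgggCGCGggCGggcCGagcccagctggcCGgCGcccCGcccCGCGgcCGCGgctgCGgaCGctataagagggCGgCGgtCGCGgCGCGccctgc
Lgr6: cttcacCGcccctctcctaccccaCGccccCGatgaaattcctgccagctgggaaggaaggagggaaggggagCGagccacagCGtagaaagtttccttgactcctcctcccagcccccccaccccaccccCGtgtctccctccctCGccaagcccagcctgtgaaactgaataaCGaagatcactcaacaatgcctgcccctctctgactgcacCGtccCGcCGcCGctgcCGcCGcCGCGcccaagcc
Wnt11: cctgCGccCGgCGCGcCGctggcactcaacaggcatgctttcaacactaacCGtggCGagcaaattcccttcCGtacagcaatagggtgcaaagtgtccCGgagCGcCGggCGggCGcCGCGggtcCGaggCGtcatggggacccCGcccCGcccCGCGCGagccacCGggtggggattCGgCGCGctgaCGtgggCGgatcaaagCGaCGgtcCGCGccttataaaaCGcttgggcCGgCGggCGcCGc
Wif1: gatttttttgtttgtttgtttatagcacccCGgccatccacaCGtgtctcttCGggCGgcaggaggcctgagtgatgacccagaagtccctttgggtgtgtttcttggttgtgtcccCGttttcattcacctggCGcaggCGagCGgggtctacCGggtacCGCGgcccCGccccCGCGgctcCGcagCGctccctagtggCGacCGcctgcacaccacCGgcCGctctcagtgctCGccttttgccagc
Dkk1: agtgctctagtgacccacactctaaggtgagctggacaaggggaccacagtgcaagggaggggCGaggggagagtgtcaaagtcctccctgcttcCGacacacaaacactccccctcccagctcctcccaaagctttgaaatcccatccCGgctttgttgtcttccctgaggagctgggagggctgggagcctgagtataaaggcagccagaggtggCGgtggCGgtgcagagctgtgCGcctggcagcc

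The stretches shown held 41 CpG for Wnt3a, 48 for Wnt9a, 16 for Lgr6, 37 for Wnt11, 21 for Wif1 and 6 for Dkk1, against a median of 6 over 32851 mouse promoters. RefSeq promoter entries were matched for 23 of the 39 genes, with 26 promoters in all. The 12 promoters that lay wholly inside an H3K4me3 peak in either condition held a median of 23 CpG (10 to 48), and the 14 that did not held a median of 16 (4 to 41). The ranges overlapped widely, and the CpG-rich Wnt3a promoter was among those without H3K4me3. The letters CTTTGA, the core of the TCF and LEF motif, were searched on both strands (TCAAAG on the other) and occurred in 4 of the 26 promoters, against 13.8% of all promoters. These 4 were promoters of Dkk1, Fzd1, Wnt11 and Wnt5b. A match is a description of letters and not a bound site.

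An H3K4me3 peak within 4 kb of a transcription start site (TSS) was listed for 26 of the 39 genes in sg-Ctrl and for 25 in KO, against 67.1% and 67% of all listed genes. H3K27me3 over the gene body was listed for 17 and 16 genes, against 26.8% and 27.6%. The H3K4me3 peak covered a start of the gene in 21 of the 26 and 20 of the 25, against 92.6% and 92.5% of all genes with such a peak. Among the genes in any list, the marks divided by role. A gene had to have a peak in some list to be counted, which raises these shares. The receptor genes Fzd8 and Fzd10 and the antagonist genes Dkk4 and Sfrp5 were in none, and Dkk1, Dkk3 and Sfrp2 were listed through H3K27me3 alone. The receptor genes Fzd2, Fzd4, Fzd5, Fzd7, Fzd9 and Lrp5 were listed through H3K4me3 alone. The counts by role were thus partly fixed by this selection. All 10 listed Frizzled and LRP receptors had H3K4me3 in both conditions, and 1 of them, Fzd1, had H3K27me3 in sg-Ctrl and none did in KO. Among the 7 antagonists the order was the opposite, with H3K27me3 at 7 in sg-Ctrl and 6 in KO and H3K4me3 at 3 and 2. The 15 ligands were split between the marks, with H3K4me3 at 9 and 10 and H3K27me3 at 6 in each condition. The 6 R-spondins and LGR receptors had H3K4me3 at 3 and 2 and H3K27me3 at 3 and 4.

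**Figure D1:**
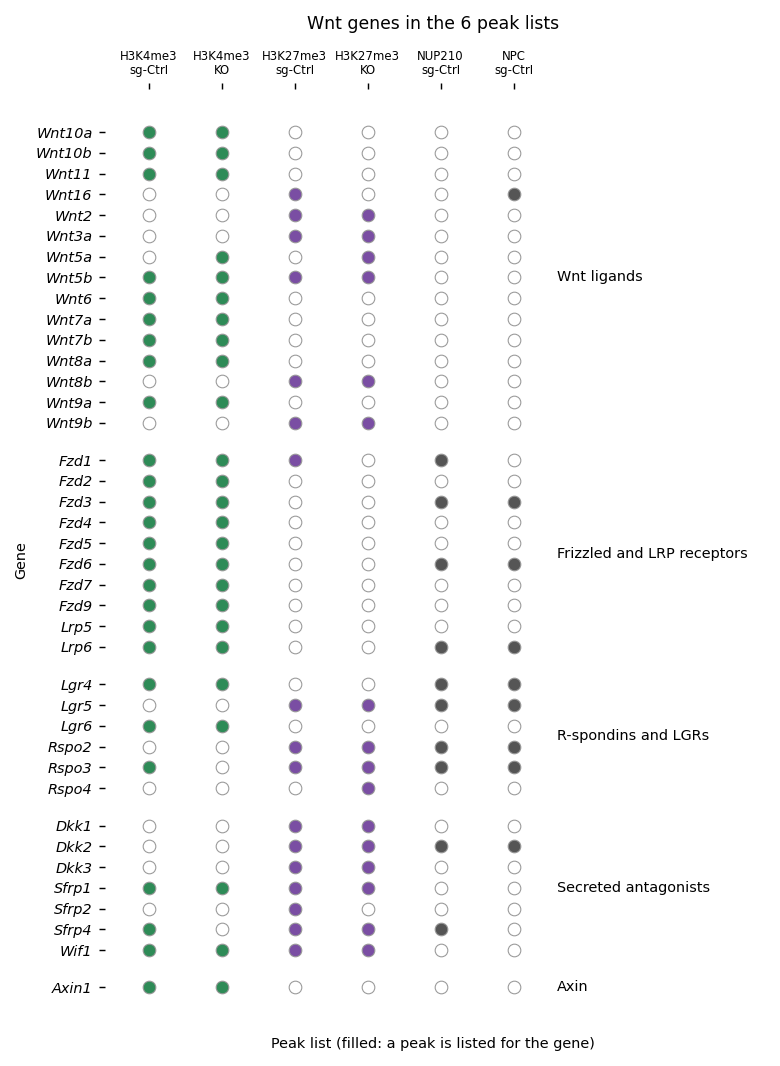
Peaks listed for the 39 Wnt genes (rows, grouped by role) in the 6 lists (columns); a filled circle is a listed peak, green for H3K4me3, purple for H3K27me3 and grey for NUP210 and NPC. The 10 receptors are filled in both H3K4me3 columns, and the 7 antagonists are mostly filled under H3K27me3.

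Taken by combination of marks, 20 genes had H3K4me3 alone in sg-Ctrl, 11 had H3K27me3 alone, 6 had both (3.9% of all listed genes) and 2 had neither. In KO these numbers were 21, 12, 4 (3.24% of all listed genes) and 2. The combination was the same in both conditions for 32 genes and differed for 7, Wnt5a, Wnt16, Fzd1, Rspo3, Rspo4, Sfrp2 and Sfrp4, against 11.1% of all listed genes. The listing of both marks for a gene did not mean that they met. The H3K4me3 peak overlapped an H3K27me3 peak in 2 genes in each condition, Fzd1 and Wif1 in sg-Ctrl and Sfrp1 and Wif1 in KO, against 3.27% and 2.77% of genes with a TSS peak. The marks came from separate libraries, so overlap does not show that both were on the same chromosomes.

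H3K4me3 levels of these genes were low. Levels are given as scaled reads per kb of the TSS peak with the highest density. In sg-Ctrl, the median over the Wnt genes was 204 scaled reads per kb against 537 over all genes with a peak, and 24 of the 26 lay under the latter. In KO, the medians were 227 and 378, and 23 of 25 lay under the latter. Fzd2, with 571 in sg-Ctrl and 430 in KO, lay above the median of all genes in both conditions. Fzd6 was the other receptor above it in sg-Ctrl (551), and Fzd5 the other in KO (471).

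**Figure D2:**
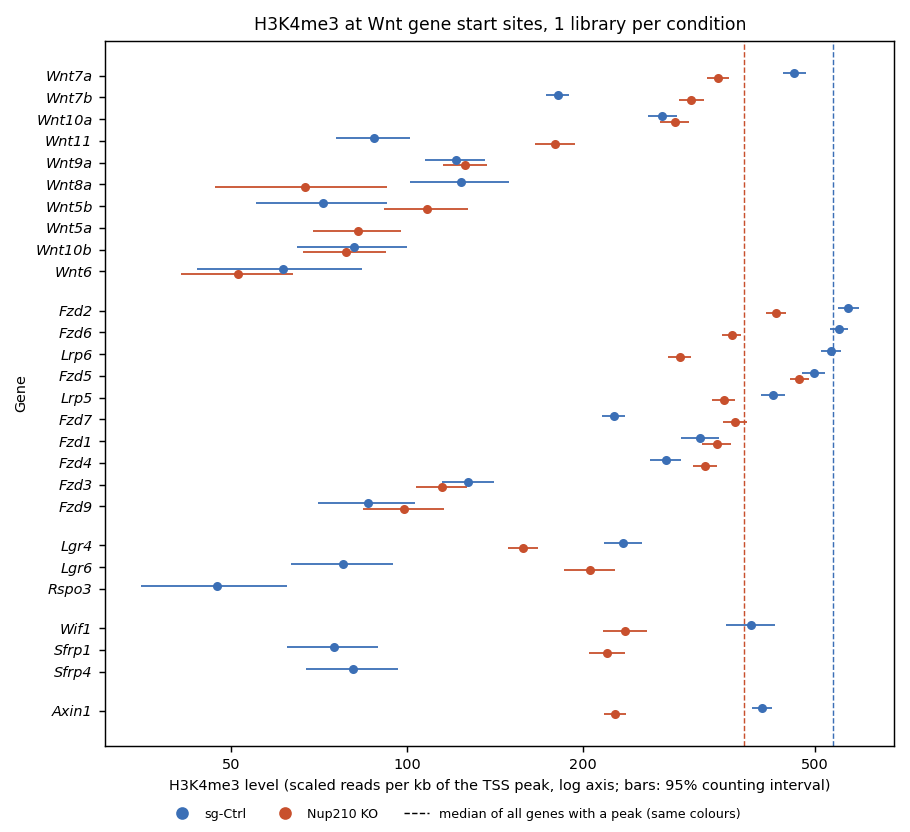
H3K4me3 level (log axis, scaled reads per kb of the TSS peak) of each Wnt gene in sg-Ctrl (blue) and KO (red), with bars for the 95% counting interval and dashed lines at the median of all genes with a peak in the same condition. Most points lie left of both lines, Fzd2 reaches farthest right in sg-Ctrl, the receptor Fzd9 lies among the low points, and Wnt11, Lgr6 and Sfrp1 show the widest step to the right in KO.

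Of the 24 Wnt genes with H3K4me3 in both lists, none was at least 2-fold lower in KO, against 9.66% of 12197 genes, and 3 were at least 2-fold higher, against 0.525%. These 3 were the ligand gene Wnt11, the R-spondin receptor gene Lgr6 and the antagonist gene Sfrp1. The median log2 ratio (KO over sg-Ctrl) was -0.07 over the Wnt genes and -0.50 over all genes. By single genes, 13 ratios lay below 0 and 11 above, whereas 88.7% of all genes lay below 0. The counting interval lay wholly below 0 for 9 genes and wholly above for 7, and it spanned 0 for 8.

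The scale of the ratio depends on how the libraries were scaled. With the reads of peaks shared by both lists as the scale, every log2 ratio rose by 0.42, the medians became 0.36 and -0.08, and 7 Wnt genes lay below 0 and 17 above, against 57.7% of all genes below 0. The gap between the Wnt genes and all genes is the same under both scales. The width of the peaks mattered as well, since 17 of the 24 peaks were wider in KO, against 63.1% of all genes. With the reads of all TSS peaks of a gene summed in place of a density, 12 genes lay below 0 and 12 above. Over both scales of both measures and the deposited fold over IgG, 6 genes were higher in KO in all 5 ratios (Wnt9a, Wnt11, Fzd1, Fzd4, Fzd9 and Lgr6), 3 were lower in all 5 (Fzd6, Lrp6 and Axin1), and the sign of the other 15 varied. Among these 15, Wnt5b, Sfrp1 and Wnt8a turned by the deposited fold and not by the others. The counting interval of the density ratio still spanned 0 for Wnt9a, Fzd1 and Fzd9.

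**Figure D3:**
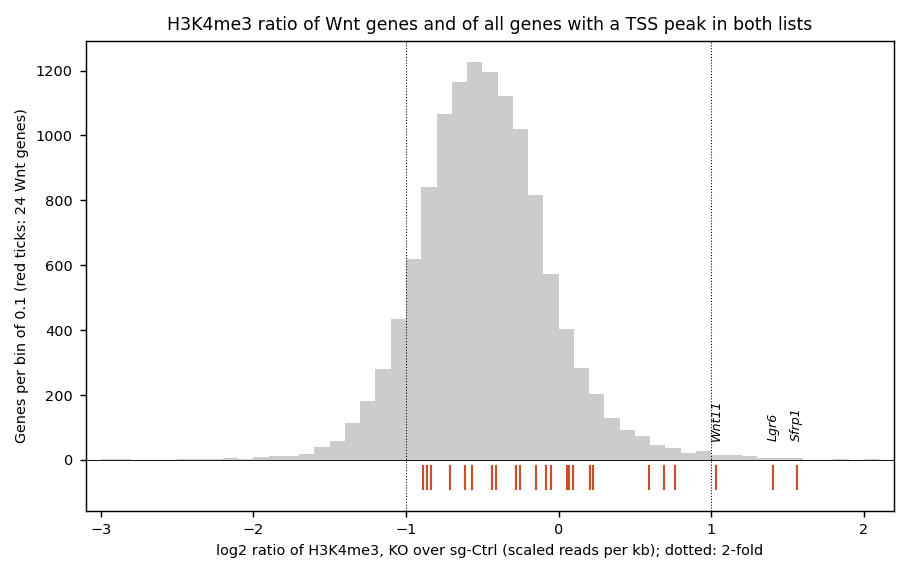
Log2 ratio of H3K4me3 in KO over sg-Ctrl (scaled reads per kb) for 12197 genes (grey bars, number of genes per bin) and for the 24 Wnt genes (red ticks). The bulk of all genes lies left of 0 around a median of -0.50, while the Wnt ticks spread around -0.07, with Wnt11, Lgr6 and Sfrp1 beyond the 2-fold line on the right.

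The 3 genes that were at least 2-fold higher all started from a low level. In sg-Ctrl, 7 of the 24 Wnt genes were under 100 scaled reads per kb, and all 3 were among them. Of all genes under that level, 379 in number, 13.7% were at least 2-fold higher in KO, and their median log2 ratio was 0.25. The median was 0.59 for the 7 Wnt genes under that level. For the 17 Wnt genes at or above it, the median was -0.28, against -0.51 over 11818 genes.

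Among the ligands, the H3K4me3 peak of Wnt7a, a canonical and beta-catenin-independent ligand, was the highest in sg-Ctrl, with 1960 reads (1874 to 2049) and 462 scaled reads per kb. In KO it had 1933 reads (1848 to 2021) and 342 scaled reads per kb, a log2 ratio of -0.44 (-0.53 to -0.34), near the median of all genes. Wnt10a, known for its part in skin and tooth development, had 274 scaled reads per kb in sg-Ctrl, against 288 in KO, and its interval of the log2 ratio ran from -0.05 to 0.18. Wnt7b, a ligand of branching epithelia, had 1 peak of 9200 bp in sg-Ctrl at 181 scaled reads per kb. In KO its list held a peak of 3800 bp at 308 scaled reads per kb and a weaker one of 2200 bp. The density of Wnt7b was thus higher in KO, with a log2 ratio of 0.76 (0.66 to 0.86), while its summed reads were lower, with -0.43 (-0.53 to -0.33). The Wnt7b peaks were also listed for AU022754.

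Wnt11, a ligand of beta-catenin-independent routes, had 186 reads (160 to 215) in a peak of 2000 bp in sg-Ctrl and 629 reads (581 to 680) in a peak of 2600 bp in KO. Its level was 87.7 and 180 scaled reads per kb, a log2 ratio of 1.03 (0.80 to 1.28), and 1.41 (1.17 to 1.66) by summed reads. The peak, chr7:98834801-98836800 in sg-Ctrl, ended 2044 bp before the Wnt11 start used in the lists and held the upstream RefSeq start whose 37 CpG are shown above. The promoter at the listed start held 16 CpG and lay in no H3K4me3 peak.

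Wnt5a, another such ligand, had H3K4me3 in KO alone, as did 1.29% of all listed genes. Its peak, chr14:28504201-28505400, held 133 reads (111 to 158) and ended 72 bp before the start. Wnt5b, its close relative, has 3 RefSeq promoters, and its peaks lay on both sides of the innermost start, far inside the listed gene. Its densest peaks, of 61 reads in sg-Ctrl and 146 in KO, did not overlap, so its log2 ratio of 0.59 compares different positions. By the deposited fold of these same peaks it was lower in KO, at -2.26, with 2 IgG reads in the first and 18 in the second. Each position had a peak in both lists, with 61 and 80 reads at one and 48 and 146 at the other, and the summed reads gave 0.71 (0.37 to 1.05).

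The ligand genes Wnt6 and Wnt10a lie with starts 20.1 kb apart, and both had H3K4me3. Wnt6 was the lowest ligand in both conditions, with 39 reads (28 to 53) in sg-Ctrl and 83 (66 to 103) in KO. Its density ratio of -0.26 (-0.82 to 0.33) and summed ratio of 0.74 (0.18 to 1.33) pointed in opposite directions. The sg-Ctrl peak of 600 bp began 1109 bp after the start and the KO peak of 1200 bp 109 bp after it, so they share little and the ratio compares largely different positions. Wnt10b, a mammary ligand, had 81.1 scaled reads per kb in sg-Ctrl, against 78.4 in KO, and its interval of the log2 ratio, -0.44 to 0.35, spanned 0. Wnt8a had the lowest ratio of the 24 Wnt genes by reads, -0.89 (-1.48 to -0.33) by density and -1.89 (-2.48 to -1.33) by summed reads, from 105 reads (86 to 127) in sg-Ctrl and 36 (25 to 50) in KO. By the deposited fold it was higher in KO, at 3.43, where the peak held 10 IgG reads in sg-Ctrl and 0 in KO. Its peaks lay more than 3 kb before the start.

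Wnt3a, a canonical ligand, and Wnt9a lie side by side, with starts 16.2 kb apart and transcribed away from each other. Wnt9a had H3K4me3 in both conditions, with 283 reads (251 to 318) and 509 (466 to 555), 121 and 126 scaled reads per kb, and no H3K27me3. Wnt3a had H3K27me3 in both and no H3K4me3. Peaks of H3K27me3 covered 60.8% of the Wnt3a body in sg-Ctrl and 79.6% in KO. The edge nearest to the Wnt3a start lay 8.75 kb from it in sg-Ctrl and 2.75 kb in KO, and no H3K27me3 peak reached Wnt9a in either condition.

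**Figure D4:**
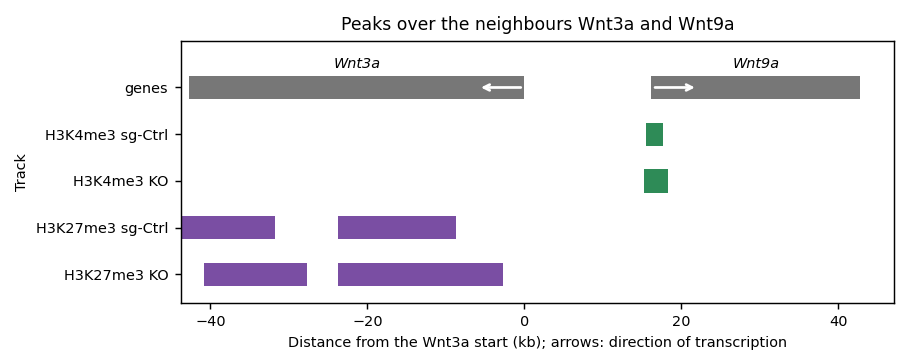
Peaks around Wnt3a and Wnt9a, plotted by distance from the Wnt3a start in kb, with the gene bodies in grey, H3K4me3 in green and H3K27me3 in purple for each condition. H3K4me3 sits at the Wnt9a start, 16.2 kb away, and the H3K27me3 peaks lie inside Wnt3a, where in KO they come to 2.75 kb from its start.

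The receptors had higher H3K4me3 levels than the ligands, with a sg-Ctrl median of 371 scaled reads per kb and a KO median of 345, against 121 and 126 for the ligands, and both roles had low members. Fzd2 had 2302 reads (2209 to 2398) in sg-Ctrl and 2548 (2450 to 2649) in KO, Fzd6 had 3159 (3050 to 3271) and 2819 (2716 to 2925), and Lrp6 had 2492 (2395 to 2592) and 1740 (1659 to 1824). The log2 ratio was -0.41 (-0.49 to -0.33) for Fzd2, -0.61 (-0.69 to -0.54) for Fzd6 and -0.86 (-0.95 to -0.77) for Lrp6. Lrp6, the coreceptor phosphorylated on Wnt binding, had a lower ratio than its relative Lrp5, at -0.28 (-0.38 to -0.19), and their counting intervals did not overlap. Fzd4, the Norrin receptor, went the other way, with 1061 reads (998 to 1127) in sg-Ctrl and 1748 (1667 to 1832) in KO and a log2 ratio of 0.22 (0.11 to 0.33).

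Fzd7, a receptor linked to breast tumor cells, had a peak of 7800 bp in sg-Ctrl and peaks of 3600 and 2200 bp in KO. Its density ratio was 0.69 (0.60 to 0.78) and its summed ratio -0.34 (-0.43 to -0.24), so its direction rests on the measure. Fzd9 was the lowest receptor, with 109 reads (90 to 131) in sg-Ctrl and 160 (136 to 187) in KO, and it was the gene of the 24 whose peak had the same bounds in both lists. Its ratio was 0.21 (-0.15 to 0.57), against a median of -0.33 over 575 H3K4me3 peaks with equal bounds. The Fzd3 peak was also listed for Fbxo16.

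Of the R-spondin receptors, which potentiate Wnt signals, Lgr6 had 99 reads (80 to 121) at its start in sg-Ctrl and 388 (350 to 429) in KO. Its peaks shared their first base, chr1:135104801-135106000 in sg-Ctrl, and held 0 IgG reads in both lists. The level was 77.8 and 206 scaled reads per kb, a log2 ratio of 1.40 (1.08 to 1.74). Lgr4 went from 697 reads (646 to 751) in 2800 bp to 1109 (1045 to 1176) in 5200 bp, lower by density at -0.57 (-0.71 to -0.43) and higher by summed reads at 0.32 (0.19 to 0.46), in a peak it shared with Gm13939. Lgr5, a stem cell marker, had no H3K4me3. Rspo3, an R-spondin gene, had H3K4me3 in sg-Ctrl alone, as did 1.38% of all listed genes, with 50 reads (37 to 66) in 1000 bp at its start, the lowest level among the Wnt genes of that list.

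Among the antagonists, Sfrp1, a secreted Frizzled decoy, had the highest ratio of the Wnt genes. It had 127 reads (106 to 151) in sg-Ctrl, at chr8:23410801-23412400, and 773 (719 to 829) in KO, at chr8:23410201-23412800. The level was 74.8 and 221 scaled reads per kb, a log2 ratio of 1.56 (1.29 to 1.84). The deposited fold over IgG was 120 in sg-Ctrl and 115 in KO, because the peak held 1 IgG read in the first and 5 in the second. By that fold, Sfrp1 was not higher in KO, with a log2 ratio of -0.061.

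Wif1, which binds Wnt ligands directly, had 412 reads (373 to 454) in sg-Ctrl and 511 (468 to 557) in KO at its start. Its density ratio was -0.71 (-0.90 to -0.52), whereas its summed ratio was -0.03 (-0.22 to 0.16), since the peak widened from 1000 to 1600 bp. Sfrp4 had a peak in sg-Ctrl alone, with 120 reads (99 to 143), which lay 3374 bp or more before its start and was also listed for Epdr1. Axin1, a scaffold of the beta-catenin destruction complex, had 2498 reads (2401 to 2598) in sg-Ctrl and 1961 (1875 to 2050) in KO and a log2 ratio of -0.84 (-0.92 to -0.75).

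H3K27me3 was listed for 19 of the 39 genes in either condition, with 14 in both, 3 in sg-Ctrl alone and 2 in KO alone. All listed genes gave 3.97% in sg-Ctrl alone and 4.75% in KO alone. Of the 19 genes, the covered length of the gene body was greater in KO for 6, smaller for 8 and equal for 5, against 42.7% greater and 28.4% smaller over all genes listed for the mark. Summed over the Wnt genes, 583 kb were covered in sg-Ctrl and 529 kb in KO, a ratio of 0.909, against 1.10 over all genes. The ratio was 0.959 without Dkk2, and by the full length of the peaks, gene body or not, it was 1.05. The depths differed 3.16 times between the H3K27me3 libraries, and the part of depth in these lengths was not tested.

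**Figure D5:**
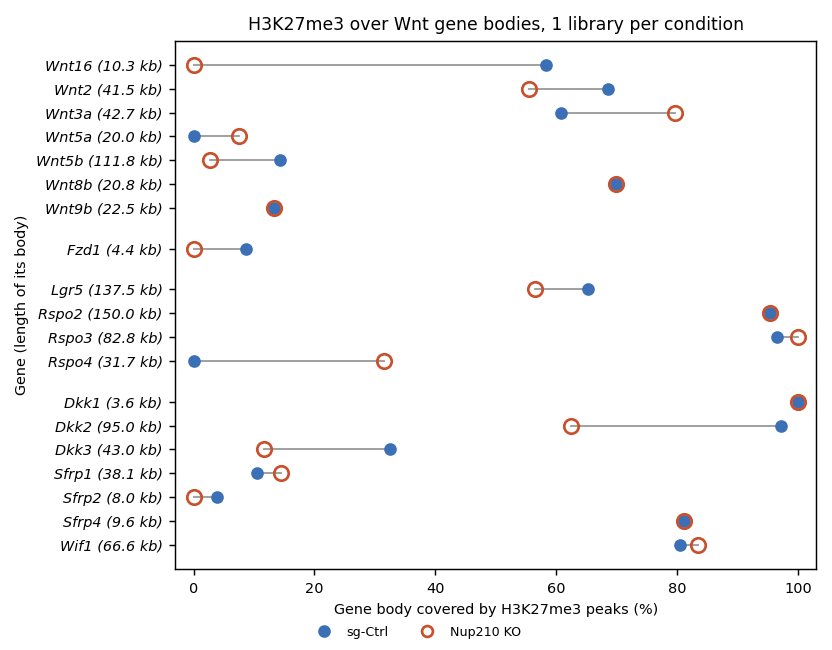
Percent of each gene body covered by H3K27me3 peaks in sg-Ctrl (blue, filled) and KO (red, open) for the 19 Wnt genes listed for the mark, with gene length in kb beside the name. Dkk2, Wnt16 and Dkk3 moved left in KO and Rspo4 and Wnt3a right, while 5 genes, Dkk1 and Rspo2 among them, stayed in place.

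Rspo2, an R-spondin ligand gene, had the longest H3K27me3-covered gene body, with 143 kb covered in both conditions, 95.3% of its body, in 2 peaks with the same bounds in both lists. The larger of these, of 198 kb, held 13081 reads (12858 to 13307) in sg-Ctrl and 45476 (45059 to 45896) in KO, which gives 0.14 as the log2 ratio after scaling (0.11 to 0.17). Over Rspo3, 96.5% of the body was covered in sg-Ctrl, by a peak of 90 kb that stopped 2867 bp inside the start. In KO, a peak of 177 kb covered 100% of the body and ran 84133 bp beyond the start, over the place of the sg-Ctrl H3K4me3 peak. The scaled density of the Rspo3 peak was lower in KO, at 39.7 reads per kb against 55.2 in sg-Ctrl. The part of depth in this wider call was not tested. Rspo4 had H3K27me3 in KO alone, with 546 reads (501 to 594) in a peak of 10 kb, 6.18-fold over IgG. That fold rests on 33 IgG reads. The scaled density, 20.4 reads per kb, was the lowest among the H3K27me3 peaks of the Wnt genes, and the KO library was the deeper one. Lgr5 went from 89.7 to 77.7 kb covered, in 6 peaks in sg-Ctrl and 8 in KO. Of its 2 peaks with equal bounds, that of 5 kb had 180 reads (155 to 208) in sg-Ctrl and 345 (310 to 383) in KO, a log2 ratio of -0.72 (-0.99 to -0.45), and that of 11 kb had 0.00098 (-0.21 to 0.22).

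All 7 antagonist genes in any list had H3K27me3 in sg-Ctrl. Dkk1, which blocks LRP5 and LRP6, lay wholly inside a peak of 262 kb in sg-Ctrl, with 11869 reads (11656 to 12085), and of 353 kb in KO, with 49943 (49506 to 50383). The scaled density of these peaks was 53.5 and 52.9 reads per kb. Dkk2 had the largest loss, with 92.3 kb covered by 1 peak in sg-Ctrl and 59.3 kb by 3 peaks in KO. Dkk3 went from 14 to 5 kb covered. Sfrp2 was listed in sg-Ctrl alone, through a peak of 182 reads (157 to 210) that met its body by 314 bp at the far end.

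Sfrp1 had a listed H3K27me3 peak over its start in KO alone. In sg-Ctrl its H3K27me3 peak was 4 kb long and lay more than 25 kb inside the gene, with 118 reads (98 to 141). In KO, a peak of 23 kb with 1315 reads (1245 to 1388) ran from 20501 bp before the start to 2499 bp after it and covered the whole H3K4me3 peak, an overlap of 2600 bp. Sfrp1 thus had more H3K4me3 reads and an H3K27me3 peak at the same place in KO. The scaled H3K27me3 density was 34.8 reads per kb for the sg-Ctrl peak and 21.4 for the KO peak over the start. The latter was near the lowest among the H3K27me3 peaks of the Wnt genes. The KO library was the deeper one, and the part of depth in this call was not tested. At Wif1, H3K27me3 covered the start in both conditions and overlapped the H3K4me3 peak by 1000 bp in sg-Ctrl and 1600 bp in KO, with 80.5% and 83.5% of the body covered. Sfrp4 kept a peak with the same bounds, with 231 reads (202 to 263) and 813 (758 to 871), a log2 ratio of 0.16 (-0.06 to 0.37).

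Of the ligands, Wnt16 had H3K27me3 in sg-Ctrl alone, with 218 reads (190 to 249) in a peak of 6 kb, 2.18-fold over IgG. Wnt5a had it in KO alone, with 303 reads (270 to 339) in a peak of 4 kb at the far end of the gene, 1515 bp of which lay in the body. Wnt5b went from 16 to 3 kb covered. Wnt2 went from 28.4 to 23.0 kb, and the peak that covered its start in sg-Ctrl, with 3370 reads (3257 to 3486) over 51 kb, was replaced in KO by one of 15 kb that began 1445 bp inside the gene. Wnt8b and Wnt9b had peaks with the same bounds in both lists. Their log2 ratios were -0.09 (-0.19 to 0.02) and 0.05 (-0.28 to 0.39).

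Fzd1 was the single receptor with H3K27me3. In sg-Ctrl, peaks of 15 kb and 28 kb flanked the gene and met its body by 162 and 216 bp, and the second overlapped the H3K4me3 peak by 1200 bp. In KO no H3K27me3 peak was listed for Fzd1, and its H3K4me3 went from 675 reads (625 to 728) to 1190 (1123 to 1260), 318 and 340 scaled reads per kb, a log2 ratio of 0.09 (-0.04 to 0.23). The density of H3K27me3 over the listed peaks was lower in KO for 10 of the 14 genes with the mark in both lists, against 66.2% of all such genes. Peaks with equal bounds in both lists, which leave peak width aside, numbered 7 over 5 Wnt genes (Lgr5, Rspo2, Sfrp4, Wnt8b and Wnt9b). Their median log2 ratio was 0.05, against -0.18 over 832 such H3K27me3 peaks, and the IgG reads were equal in all 832.

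NUP210 and NPC peaks in sg-Ctrl were weak over these genes. A NUP210 peak was listed for 10 genes, against 33.9% of all listed genes, and an NPC peak for 9, against 30.8%, with 8 genes in both. Of the 23 NUP210 peaks, none was at least 2-fold over IgG, against 3.21% of all NUP210 peaks, 7 had fewer reads than scaled IgG, and 7 passed an FDR of 0.05, against 69% of all. Of the 21 NPC peaks, none was at least 2-fold, against 0.677%, 5 had fewer reads than scaled IgG, and 7 passed that FDR, against 51.7%. The highest NUP210 fold was 1.68, over Rspo3, with 461 reads (420 to 505) against 275 scaled IgG reads. Next came Fzd3 (1.32), Dkk2 (1.30), Rspo2 (1.24) and Lgr5 (1.12), each by its highest peak. The Lgr5 peak had an FDR of 0.096, and the other Fzd3 peaks lay under scaled IgG, at 0.87 and 0.94. The other NUP210 peaks over Rspo3 were near scaled IgG, at 1.01 and 1.02, with an FDR of 0.40 and 0.39. The highest NPC folds were 1.27 over Dkk2, 1.25 over Rspo3, 1.22 over Lgr4, 1.16 over Lrp6 and 1.15 over Wnt16.

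The genes with a NUP210 peak were long, with a median of 88.9 kb, against 20.8 kb for the other Wnt genes. Of the 11 Wnt genes of 60 kb or more, 7 had a NUP210 peak, against 61.8% of all genes of that length, and of the 28 shorter ones 3 did, against 26.8% of all shorter genes. Of the 23 NUP210 peaks, 13 overlapped an H3K27me3 peak of sg-Ctrl, against 34.9% of all NUP210 peaks, and several of the 13 lie in the same gene. Of the 21 NPC peaks, 10 did, against 35.2% of all. The 13 NUP210 peaks lay over Dkk2, Fzd1, Lgr5, Rspo2, Rspo3 and Sfrp4, and those over the receptors Fzd3, Fzd6 and Lrp6 and over Lgr4 did not. These counts include peaks at the level of IgG. The NUP210 peaks over Fzd1 and Sfrp4 had fewer reads than scaled IgG, at 0.79 and 0.99. The Lgr5 peaks, the 1.06-fold Dkk2 peak and the Rspo3 peaks at 1.01 and 1.02 missed an FDR of 0.05 (0.096 to 0.40). Those that passed it lay over Dkk2, Rspo2 and Rspo3. The NPC count also held peaks under scaled IgG, at 0.94 over Dkk2 and 0.96 over Rspo2. The overlap share was not computed for passing peaks alone.

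Most other genes of the Wnt pathway had H3K4me3. Of 56 other pathway genes, 51 were in a list. Of these, 44 had H3K4me3 in both conditions, against 67.1% of all listed genes in sg-Ctrl and 67% in KO. H3K27me3 was listed for 9 in sg-Ctrl and 7 in KO, against 26.8% and 27.6% of all listed genes. The median log2 H3K4me3 ratio of the other pathway genes was -0.39, with 36 of 44 below 0. Among them, 2 were at least 2-fold lower in KO and none was at least 2-fold higher, against the 9.66% and 0.525% of all genes given above. Dvl2, which relays the receptor signal, went from 2405 to 2219 reads and from 1030 to 484 scaled reads per kb, a log2 ratio of -1.09 (-1.17 to -1.01). Gsk3b, a kinase of the destruction complex, went from 16860 to 12394 reads and from 1656 to 793 scaled reads per kb, a log2 ratio of -1.06 (-1.10 to -1.03). With the shared-peak scale neither was past 2-fold, and 2 others, Notum and Vangl2, were past it on the higher side.

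By group, all 13 cytoplasmic genes with H3K4me3 in both lists had ratios below 0 (median -0.63), as had 88.7% of all genes (median -0.50), and none had H3K27me3. The 12 nuclear genes had a median of -0.27, the 4 target genes -0.28, the 5 receptor and turnover genes -0.69, the 5 secretion and extracellular genes -0.30 and the 5 planar polarity genes -0.06. H3K27me3 in this set included 4 of the 9 secretion and extracellular genes in sg-Ctrl and 3 in KO, against 26.8% and 27.6% of all listed genes. Sost and Sostdc1, which are LRP antagonists like the DKK proteins, were among them in both conditions. Lef1, a nuclear partner of beta-catenin, had both marks in sg-Ctrl, with 20.7 kb covered by H3K27me3, and H3K4me3 alone in KO, with 89 reads in sg-Ctrl, 133 reads in KO and a log2 ratio of 0.23 (-0.16 to 0.64).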

How the data were processed

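ChIP-seq peak lists of 4T1 cells were used, with 1 library each for H3K4me3 and H3K27me3 in sg-Ctrl and in Nup210 KO cells and for NUP210 and NPC in sg-Ctrl cells. Per the study's methods, the authors called peaks with SICER at default parameters, using 200 bp windows (H3K4me3) or 1000 bp windows (broad targets such as H3K27me3 and NUP210). NPC peaks also lie on a grid of 1000 bp. The rows pair each peak with a RefSeq transcript. The methods name no control, and the control column was read as IgG because the series holds IgG libraries. The deposited columns are read counts of ChIP and IgG per peak, a p-value and an FDR (a q-value) per peak, and the fold over IgG, a ratio scaled by library size. The labels name the builds mm9, mm10 and NCBIM37 with no role. Gene starts or ends of 35 of 39 Wnt genes lay within 50 bp of GRCm38.p6 (mm10), and coordinates are given as in the lists, 1-based. SICER and aligner versions are not given in the sources used here.

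The ChIP to IgG library ratio was recovered from the deposited counts and fold, and reads were divided by it. Where the IgG count was 0, the deposited fold was computed with 0.25 IgG reads. H3K4me3 peaks lay within 4 kb of a TSS, and the densest was used for each gene. H3K27me3, NUP210 and NPC peaks met the gene body by 1 bp or more. Intervals are 95% (exact Poisson for reads, Clopper-Pearson for ratios), and PCR reads are not independent molecules, so they cover counting error only. Counts of called genes are set beside a percent over all genes.

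The genes and lists were chosen with earlier results of these data known. Full values are given for genes past 2-fold in H3K4me3, in 1 of 2 lists, with both marks, with the 5 largest gains or losses of H3K27me3 length, with the 5 highest NUP210 or NPC folds, and for the 3 highest H3K4me3 levels per role. Alternatives were other scales, measures, peak thresholds and overlaps. Values were computed in Python 3.11.15 (scipy 1.17.1, pandas 2.3.3, numpy 2.4.6) and drawn with matplotlib 3.10.9, and the ratio step was tested on simulated data. RNA-seq samples and IgG libraries of the series were not analysed here, and the genome given, NCBIM37, is another build and was not used.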

Additional observations from a re-analysis of the deposited data

How the results depend on the processing

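No paired analysis was possible because each ChIP condition has 1 library. Of 47 counts, medians and length ratios under alternative settings, 30 stayed within 1.5 times (a length ratio also on its side of 1) or, for a log2 median, within 0.1. Of 60 single-gene log2 ratios over 12 genes, 55 kept their sign and their side of 2-fold. These 12 were the genes whose sign was the same over both scales of both measures, so this share was partly fixed by the choice. Of all 24 genes with a ratio, the sign of 15 varied over the 5 ratios described above. The median log2 H3K4me3 ratio of the Wnt genes, -0.07, became 0.36 with shared-peak scaling and 0.086 with summed reads. It was 0.59 for genes that sg-Ctrl had under 100 scaled reads per kb and 0.21 for the gene with equal peak bounds, both chosen after seeing the data, as were equal-bound H3K27me3 peaks and the request that a peak cover a TSS. Genes at least 2-fold higher numbered 6 with shared-peak scaling and 5 by the deposited fold, and genes at least 2-fold lower numbered 1 by that fold (Wnt5b) and 1 with summed reads (Wnt8a). By the deposited fold, Sfrp1 turned to -0.061, Wnt5b to -2.26 and Wnt8a to 3.43, with IgG reads of 1 and 5, 2 and 18, and 10 and 0 in their sg-Ctrl and KO peaks. The H3K27me3 covered-length ratio of 0.909 became 1.05 by full peak length. Equal-bound peaks, which cannot differ in length, gave 1.03 as the median ratio of scaled reads, a measure of level and not of length. With an FDR of 0.01, NUP210 was listed for 4 genes and NPC for 4, and with at least 2-fold over IgG for 0 and 0. Genes with both marks in KO fell to 2 when peaks had to cover 10% of the body. With shared-peak scaling, 0 other pathway genes were at least 2-fold lower and 2 higher. Where no reason is given, the cause was not tested. Peaks of under 100 reads, such as those of Rspo3, Wnt6 and Wnt5b, leave wide intervals, and a gene outside a list may still carry the mark below the caller's threshold.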
